A study of Mus musculus with 8 samples.

Results

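The 5 NF-κB subunit genes (*Nfkb1*, *Nfkb2*, *Rel*, *Rela* and *Relb*) and 5 genes of its inhibitors (*Nfkbia*, *Nfkbib*, *Nfkbie*, *Nfkbiz* and *Tnfaip3*) were followed in bone marrow-derived macrophages (BMDMs), which are macrophages grown from marrow cells in culture. The 10 genes were taken by name, and all 10 were found among the 50615 gene rows of the table. RNA was sequenced from C57BL/6 BMDMs of *Ncoa6* fl/fl mice, which the labels call WT or Flox and which are Ncoa6-sufficient here, and of *Ncoa6* fl/fl LysM CRE mice, called Ncoa6-KO or MKO. Both genotypes therefore carry the floxed *Ncoa6* allele, and the knockout differs by Cre made from the lysozyme 2 locus (*Lyz2*), which acts in myeloid cells. *Ncoa6* encodes a nuclear coactivator that binds transcription factors and nuclear receptors. Marrow cells of both genotypes spent 6 days in medium with M-CSF (20 ng/ml). Some cultures received no stimulus (medium alone), and the others received LPS (100 ng/ml) for 4 h and monosodium urate (MSU) crystals (200 µg/ml) for another 2 h, hereafter LPS + MSU. Each of the 4 groups held 2 libraries from different mice, whose age is not given in the sources used here. LPS alone and MSU alone were not among these libraries, so the parts played by each agent cannot be told apart.

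NF-κB is a dimer of Rel-family proteins that is held in the cytoplasm of resting macrophages by IκB proteins. Toll-like receptor signals activate the IKK kinases, which mark IκB for destruction, and the freed dimer enters the nucleus and switches on inflammatory genes. Several of these genes encode inhibitors of the pathway itself, such as IκBα (*Nfkbia*) and the ubiquitin-editing enzyme A20 (*Tnfaip3*), so the response carries its own brake. mRNA levels, which are what was measured here, do not report the movement or the breakdown of these proteins.

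The promoters of the members were searched on both strands for the NF-κB consensus decamer, the DNA sequence to which NF-κB dimers bind. RefSeq windows of GRCm38.p6, each with 250 bases before and 50 after a transcript start, were at hand for 7 of the 10 members, and there were none for *Nfkb1*, *Relb* and *Nfkbiz*. The decamer was found in 5 of these 7 members (*Nfkb2*, *Rel*, *Nfkbia*, *Nfkbie* and *Tnfaip3*), and no match stood in the windows of *Rela* and *Nfkbib*. Of all 32851 windows, 8.46% held it. That share counts single windows, whereas 5 of 7 counts genes, and *Nfkb2* had 3 windows and *Tnfaip3* 2, so these shares are not in like units. The 5 members with a match are shown by 1 site each, with another one for *Tnfaip3*. All 10 members rose with LPS + MSU in the results that follow, also *Rela* and *Nfkbib*, which had no match. The sequences run 5′ to 3′ along the gene's strand, with the decamer in capitals:

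Nfkbia, chr12:55492657-55492686, minus strand: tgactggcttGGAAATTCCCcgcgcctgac

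Nfkbie, chr17:45555584-45555613, plus strand: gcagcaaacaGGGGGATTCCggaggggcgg

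Tnfaip3, chr10:19015516-19015545, minus strand: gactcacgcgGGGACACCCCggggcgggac

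Tnfaip3, chr10:19015411-19015432, minus strand: aatttccatcGGAAATCCCCct

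Rel, chr11:23771042-23771071, minus strand: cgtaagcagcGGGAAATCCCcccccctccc

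Nfkb2, chr19:46304688-46304717, plus strand: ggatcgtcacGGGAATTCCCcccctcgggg

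The site of *Nfkbia* begins 29 bases before the transcript start, that of *Nfkbie* 106 bases before and that of *Rel* 92 bases before, all upstream of the annotated gene. The first *Tnfaip3* site begins 125 bases and the second 12 bases before the RefSeq start, and both lie in an intron of a longer GENCODE gene model. The *Nfkb2* site begins 39 bases before its start and falls in an exon of the GENCODE model. In *Rel* and in *Nfkb2* a further match overlaps the site shown, shifted by 1 base. *Nfkb2* has 3 more separate matches, which begin at positions 46304726, 46305459 and 46305705 of chromosome 19 and are not shown. Among other genes whose mean was 50 normalized counts or more, 34.0% of the 1049 with the decamer were called higher with LPS + MSU in Ncoa6-sufficient BMDMs, and 29.3% of the 7609 without it. A match of letters is a description and does not show that a factor was bound.

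The counts of the 8 libraries summed to between 25281955 and 33673552, and 17625 genes passed the filter, including every member. *Ncoa6* itself was lower in the knockout, at 784 and 622 normalized counts against 1515 and 1405 with medium alone, and at 563 and 526 against 1297 and 1173 with LPS + MSU. The log2 fold changes were -1.05 (SE 0.117, edgeR quasi-likelihood test, adjusted p = 0.00236) and -1.18 (SE 0.124, adjusted p = 0.00189), so *Ncoa6* reads remained in the knockout libraries. The study's supplement places the loxP sites around exon 7 of *Ncoa6*, whereas these counts cover the whole gene. They therefore cannot show how complete the deletion was. All 7 macrophage markers were detected in all groups, and *Cd3e*, *Cd3d*, *Nkg7* and *Ncr1* of T and NK cells had too few counts to pass the filter. The summed level of the 7 macrophage markers was lower in the knockout, at 8463 to 9777 against 13149 to 15383 CPM (counts scaled to a common library total) with medium alone and at 12218 to 12955 against 16523 to 18538 with LPS + MSU. Without *Lyz2*, the locus that carries Cre, the remaining 6 summed to 4645 to 5429 against 5993 to 6107 with medium alone and to 8015 to 8543 against 9113 to 9322 with LPS + MSU. Of other cell types, 5 of 6 neutrophil markers passed the filter and summed to 8.36 to 20.1 CPM over the 8 libraries, and 3 endothelial markers summed to 12.4 to 12.9 CPM in the knockout against 18.1 to 24.2 with medium alone and to 104 to 186 against 223 to 236 with LPS + MSU. Of 3 osteoclast markers 2 passed the filter, and they summed to 11.8 to 13.2 CPM in the knockout against 7.60 to 8.12 with medium alone and to 13.9 to 15.0 against 8.50 to 8.64 with LPS + MSU. In bulk samples fewer cells of a type and less RNA per cell cannot be told apart, and the part of these marker levels in the results below was not tested.

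On GRCm38 the subunit genes lie at chr3:135584655-135691547 (*Nfkb1*), chr19:46304320-46312385 (*Nfkb2*), chr11:23736847-23770970 (*Rel*), chr19:5637483-5648130 (*Rela*) and chr7:19606217-19629438 (*Relb*). The inhibitor genes lie at chr12:55489410-55492647 (*Nfkbia*), chr7:28758251-28767512 (*Nfkbib*), chr17:45555703-45563169 (*Nfkbie*), chr16:55811375-55838899 (*Nfkbiz*) and chr10:19000910-19015657 (*Tnfaip3*). All 10 are annotated as protein coding, and the values below are for the whole gene, not for single transcripts.

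To ask how the pathway responded to the inflammatory stimulus, LPS + MSU was compared with medium in each genotype. All 10 members rose in Ncoa6-sufficient BMDMs, and all 10 rose in Ncoa6-KO BMDMs (adjusted p under 0.05 each), where 24.7% and 25.2% of all tested genes were called higher, and 55.2% and 53.1% were called in either direction. The median log2 fold change of the members was 3.22 and 3.32, beside -0.12 and -0.07 for all genes tested. The response spanned a wide range among the members. The 3 largest rises were those of inhibitors and the smallest were those of *Rela* and *Relb*.

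*Rela* encodes p65, the transactivating subunit of the main NF-κB dimer. It was at 1855 and 1817 normalized counts in Ncoa6-sufficient BMDMs with medium and at 3461 and 3450 with LPS + MSU, and in Ncoa6-KO BMDMs at 1885 and 1637, then 3393 and 3695. *Rela* rose 1.88-fold in the Ncoa6-sufficient cells (log2 fold change 0.91, SE 0.097, adjusted p = 9.88e-06) and 2.01-fold in the knockout (1.01, SE 0.097, adjusted p = 4.78e-06), the least of the 10 members. *Relb* encodes the partner of p52 in the non-canonical pathway. Its counts were 871 and 821 with medium and 2272 and 2294 with LPS + MSU in Ncoa6-sufficient BMDMs, and 828 and 734, then 2582 and 2851, in the knockout. *Relb* rose by 1.43 on the log2 scale in Ncoa6-sufficient BMDMs (SE 0.097, adjusted p = 2.5e-07) and by 1.80 in the knockout (SE 0.098, adjusted p = 4.62e-08). All stimulated libraries stood above all resting ones of the same genotype for both genes and for the 8 other members, as they did in 35.1% of all genes in Ncoa6-sufficient BMDMs and 35.4% in the knockout.

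*Nfkb1* and *Nfkb2* encode the precursors p105 and p100, which are cut to the DNA-binding subunits p50 and p52 and, uncut, hold other subunits as IκB proteins do. *Nfkb1* was at 2659 and 2329 normalized counts with medium and at 20785 and 19474 with LPS + MSU in Ncoa6-sufficient BMDMs, and at 2302 and 2110, then 17729 and 17855, in the knockout. It rose 8.07-fold and 8.06-fold (log2 fold change 3.01 in both, SE 0.114 in both). *Nfkb2* was at 1785 and 1584 with medium and at 18628 and 17650 with LPS + MSU, and in the knockout at 1570 and 1379, then 18236 and 18022. It rose 10.8-fold in the Ncoa6-sufficient cells and 12.3-fold in the knockout (log2 fold change 3.43 with SE 0.118 and 3.62 with SE 0.119). *Rel*, which encodes the c-Rel subunit of lymphoid and myeloid cells, went from 1090 and 1091 to 7278 and 7033 counts in Ncoa6-sufficient BMDMs, and from 1118 and 1063 to 6380 and 6511 in the knockout. The rise of *Rel* was 6.56-fold and 5.91-fold (log2 fold change 2.71 with SE 0.092 and 2.56 with SE 0.091). The subunits thus moved by unequal amounts, with *Nfkb1*, *Nfkb2* and *Rel* each rising more than *Rela* and *Relb* in both genotypes, with 95% intervals that did not overlap.

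**Figure D1:**
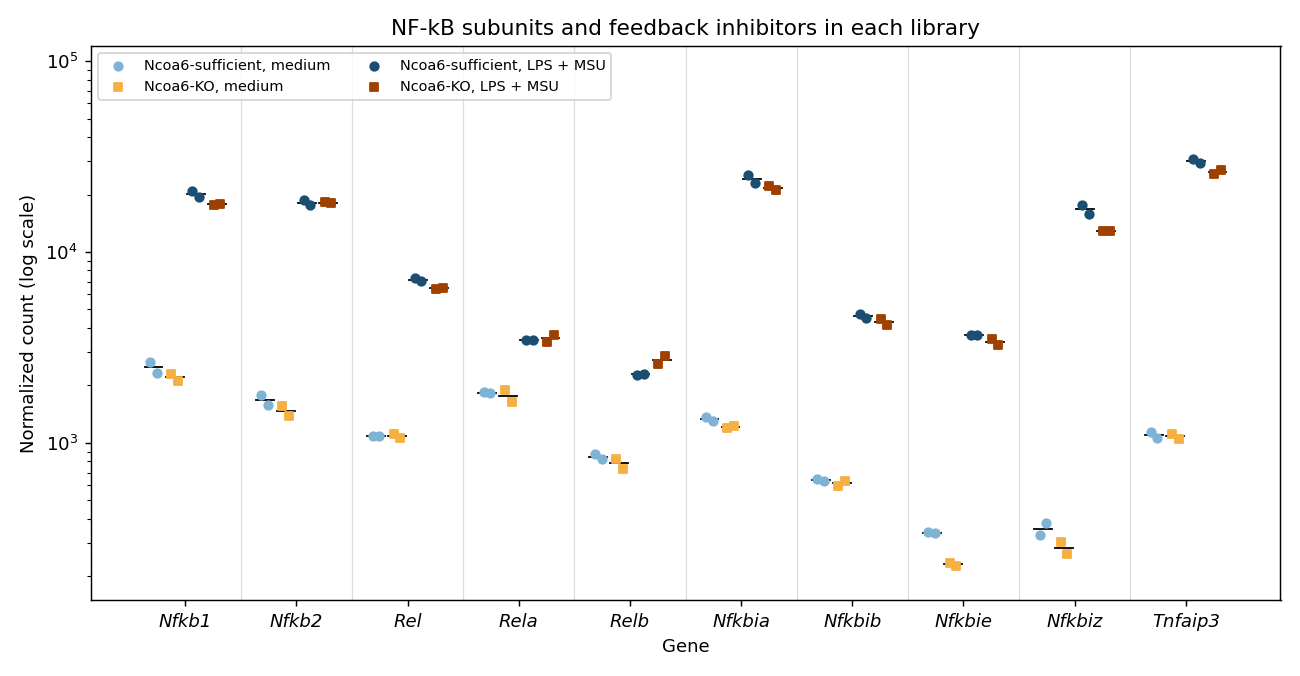
Normalized counts (log axis) of the 10 genes in each of the 8 libraries, with 1 point a library, colours for the 4 groups and a black line at the mean of each pair. In every gene the 4 stimulated libraries sit above the 4 resting ones, and the gap between genotypes is smaller than that between conditions, as for *Nfkbie* with medium alone (235 and 227 in the knockout against 341 and 338) and *Nfkbiz* with LPS + MSU (12835 and 12845 against 17650 and 15901).

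Among the inhibitors, *Nfkbiz* encodes IκBζ, a nuclear IκB protein that is made on demand and helps to turn on secondary response genes such as *Il6*. *Nfkbiz* was at 330 and 380 normalized counts in resting Ncoa6-sufficient BMDMs and at 17650 and 15901 with LPS + MSU. In the knockout it was at 304 and 261, then at 12835 and 12845. This was the largest rise among the members, at 47.3-fold (log2 fold change 5.56, SE 0.137, adjusted p = 2.9e-10) and 45.3-fold (5.50, SE 0.137, adjusted p = 2.78e-10), and *Nfkbiz* ranked 134 from the top among the 11219 genes whose mean was 50 normalized counts or more, in Ncoa6-sufficient BMDMs. *Tnfaip3* encodes A20, which removes and adds ubiquitin chains on signalling proteins upstream of IKK. Its counts were 1141 and 1063 with medium and 30605 and 29203 with LPS + MSU in Ncoa6-sufficient BMDMs, and 1120 and 1042, then 25562 and 26878, in the knockout. *Tnfaip3* rose 27.1-fold and 24.2-fold (log2 fold change 4.76 with SE 0.119 and 4.60 with SE 0.118).

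The 3 classical inhibitors in the set bind NF-κB dimers in the cytoplasm. *Nfkbia*, which encodes IκBα, was at 1374 and 1295 normalized counts with medium and at 25167 and 22923 with LPS + MSU in Ncoa6-sufficient BMDMs, and at 1199 and 1228, then 22268 and 21241, in the knockout. *Nfkbia* rose 18.0-fold and 17.9-fold (log2 fold change 4.17 and 4.16, SE 0.114 in both). *Nfkbie*, which encodes IκBε, went from 341 and 338 to 3673 and 3666 counts in Ncoa6-sufficient BMDMs, and from 235 and 227 to 3493 and 3246 in the knockout. The rise of *Nfkbie* was 10.8-fold (log2 fold change 3.43, SE 0.094) and 14.6-fold (3.86, SE 0.097), so the knockout libraries started lower and ended near the others. *Nfkbib*, which encodes IκBβ, was at 646 and 633 with medium and 4742 and 4488 with LPS + MSU, and in the knockout at 598 and 635, then 4456 and 4155. It rose 7.21-fold and 6.99-fold (log2 fold change 2.85 with SE 0.095 and 2.80 with SE 0.094). *Nfkbib* overlaps *Ccer2* and *Sirt2* on the other strand and *Nfkb2* overlaps *Psd* and *AC114539.1*. The libraries were made with a stranded kit, but the strand setting of the counting is not given in the sources used here.

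**Figure D2:**
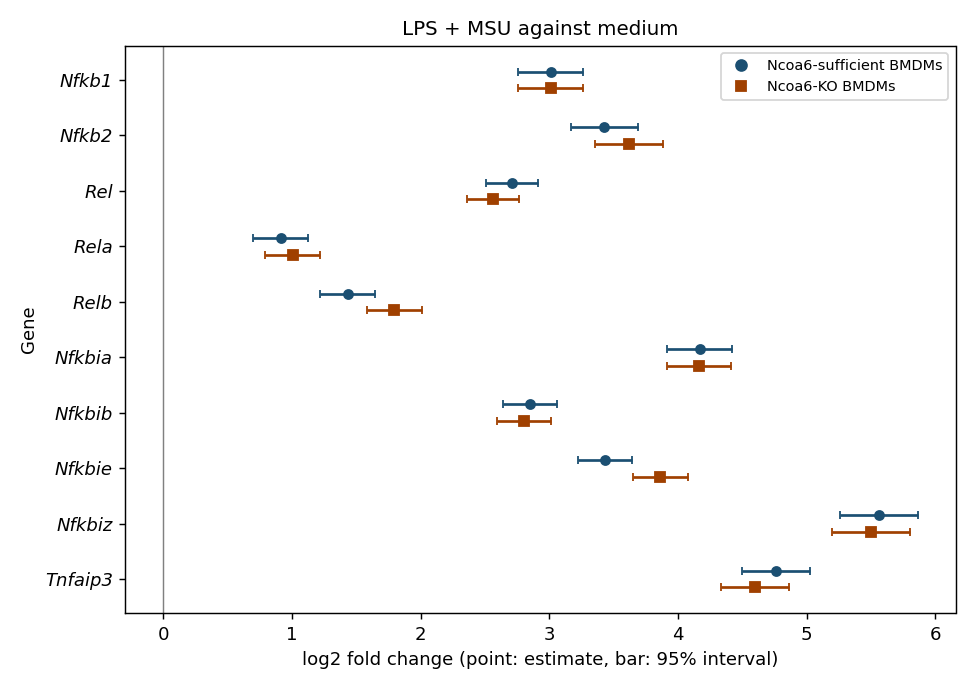
Log2 fold change of LPS + MSU against medium for each gene (x axis), with circles for Ncoa6-sufficient and squares for Ncoa6-KO BMDMs and bars for the 95% interval. All estimates lie to the right of 0, from 0.91 for *Rela* to 5.56 for *Nfkbiz*.

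Levels of different genes were compared per length, as CPM per kilobase of exon, since a long gene collects more reads. *Nfkbia* stood first in every group, at 28.3 ± 1.18 (SD, n = 2) in resting Ncoa6-sufficient BMDMs and 509 ± 33.6 with LPS + MSU, and at 25.7 ± 0.449 and 461 ± 15.4 in the knockout. *Rela* stood at place 2 at rest in Ncoa6-sufficient BMDMs, at 20.4 ± 0.296, and at place 8 with LPS + MSU, at 38.3 ± 0.0861. *Nfkbiz* was last at rest, at 2.41 ± 0.240, and at place 4 with LPS + MSU, at 114 ± 8.41. Neighbours in that order whose 2 libraries overlapped were *Relb* and *Nfkb1* at rest and *Tnfaip3* and *Nfkb2* with LPS + MSU. The place of *Nfkb1* rests on the length used, because its annotated exons join to 12061 bases and its longest transcript has 4149. It stood at place 6 in both conditions with the joined exons. With the longest transcript it stood at place 3 at rest and at place 2 with LPS + MSU, both in Ncoa6-sufficient BMDMs, where *Rela* then stood at place 7 with LPS + MSU.

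The summed level of the 3 classical inhibitors was set against that of the 5 subunits. The ratio of inhibitor to subunit mRNA per length was 0.805 ± 0.00996 (SD, n = 2) in resting Ncoa6-sufficient BMDMs and 2.20 ± 0.0628 with LPS + MSU. It was 0.785 ± 0.0827 and 2.04 ± 0.101 in the knockout. With the longest transcript as length the values were 0.599 and 1.50 in Ncoa6-sufficient cells and 0.590 and 1.42 in the knockout. *Rela* made up 38.9% ± 1.16 of the subunit level at rest and 13.6% ± 0.377 with LPS + MSU in Ncoa6-sufficient BMDMs. With the longest transcript as length these shares were 31.9% and 10.2%. The resting and stimulated libraries did not overlap in the ratio or in the *Rela* share. However, 2 libraries against 2 allow no exact permutation p below 0.333.

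**Figure D3:**
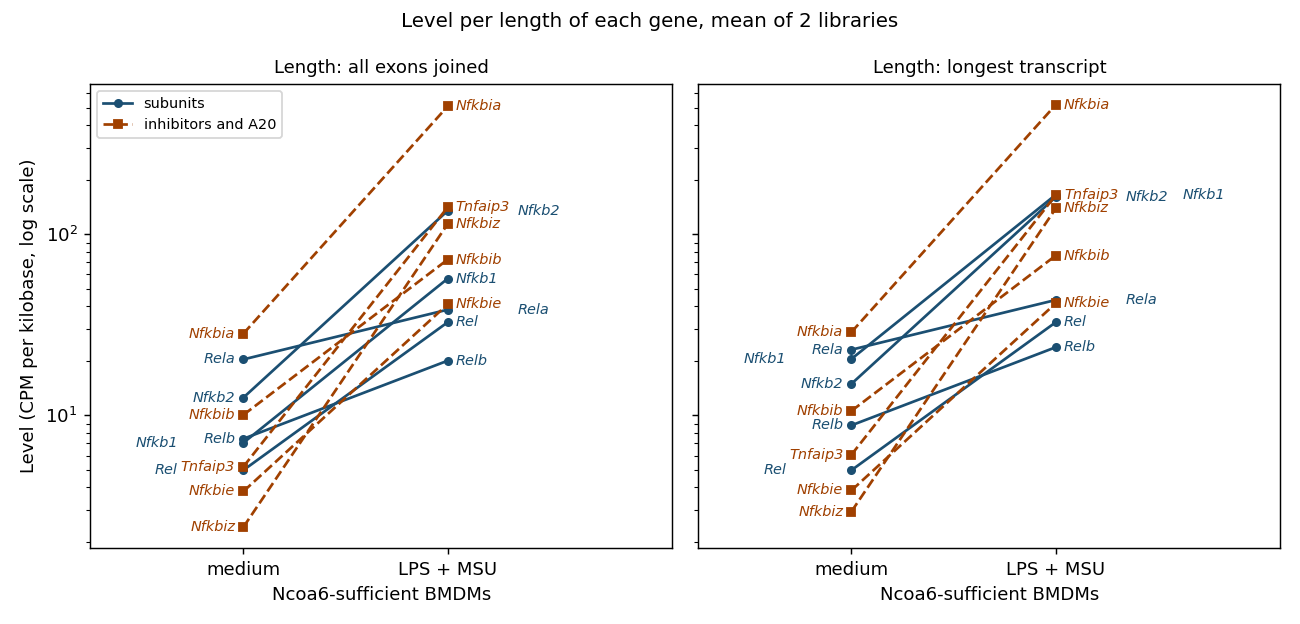
Mean level per length (CPM per kilobase, log axis) in Ncoa6-sufficient BMDMs with medium and with LPS + MSU, on the left with all annotated exons joined and on the right with the longest transcript as length. *Nfkbia* is at the top on both sides, *Rela* has the flattest line, and *Nfkb1* is the gene that moves furthest between the panels.

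The next question was whether loss of *Ncoa6* changed these genes in resting cells. With medium alone, 1 of the 10 members fell in the knockout and none rose, where 1.88% of all tested genes were called. The gene was *Nfkbie*, at 235 and 227 normalized counts against 341 and 338, which is 0.682 of the Ncoa6-sufficient level (log2 fold change -0.55, SE 0.095, 95% interval -0.76 to -0.34, adjusted p = 0.0209). This call was lost when the 4 resting libraries were fitted alone (adjusted p = 0.072) and when either Ncoa6-sufficient library (0.211 and 0.0928) or knockout replicate 2 (0.0872) was left out, with log2 fold changes between -0.58 and -0.51 in the leave-one-out fits. *Nfkbiz* was at 304 and 261 against 330 and 380, a log2 fold change of -0.33 (SE 0.125, adjusted p = 0.278). Of the refits, only the edgeR fit with a term for the replicate number within each genotype (a replicate block) called it. Differences of the remaining 8 members ran from -0.19 for *Nfkb2* to 0.00 for *Rel*, and their 95% intervals all included 0. The 2 genotypes did not overlap in 5 members, all lower in the knockout, where 24.5% of all genes were lower without overlap.

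With LPS + MSU, none of the 10 members was called in the main edgeR fit (4 groups as the model, low counts filtered out). Of all tested genes, 3.59% were called in it. At an unadjusted p under 0.05 there were 2 members, where 17.4% of all genes passed. One was *Nfkbiz*, at 12835 and 12845 normalized counts against 17650 and 15901, with a log2 fold change of -0.39 (SE 0.111, 95% interval -0.63 to -0.14, adjusted p = 0.0925). DESeq2 called it (adjusted p = 0.00934), as did the edgeR fit with no filter on low counts (0.0201). Both edgeR fits with a replicate block, across groups or within each genotype, called it too. In refits that kept both libraries of the groups compared its adjusted p ran from 0.000765 to 0.105. Leaving out single libraries gave log2 fold changes of -0.47 to -0.32. The other was *Relb*, which was at 2582 and 2851 against 2272 and 2294, a difference in the opposite direction (log2 fold change 0.25, SE 0.095, adjusted p = 0.198). Of the refits, only the one with a replicate block within each genotype called *Relb*. *Tnfaip3* was at -0.19 (95% interval -0.41 to 0.03) and *Nfkbia* at -0.14 (-0.36 to 0.08), and both intervals included 0. *Nfkb2* differed least, with a log2 fold change of -0.00 (95% interval -0.24 to 0.23). The genotypes did not overlap in 8 members, 7 lower and 1 higher (*Relb*), beside 22.7% of all genes lower and 24.7% higher without overlap.

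The effect of the knockout was then compared between the 2 culture conditions. None of the 10 members differed by edgeR's interaction test, nor did any of the 17625 genes (0% called), and DESeq2 called none of the members. The largest differences were those of *Nfkbie*, whose knockout effect was -0.55 with medium and -0.12 with LPS + MSU (difference 0.43, 95% interval 0.15 to 0.71, adjusted p = 0.576), and of *Relb*, at -0.11 and 0.25 (difference 0.36, 95% interval 0.07 to 0.66, adjusted p = 0.734). These 2 members had an unadjusted p under 0.05, where 5.93% of all genes did. The stimulation and knockout comparisons share libraries, so their values for a gene are not independent of each other.

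**Figure D4:**
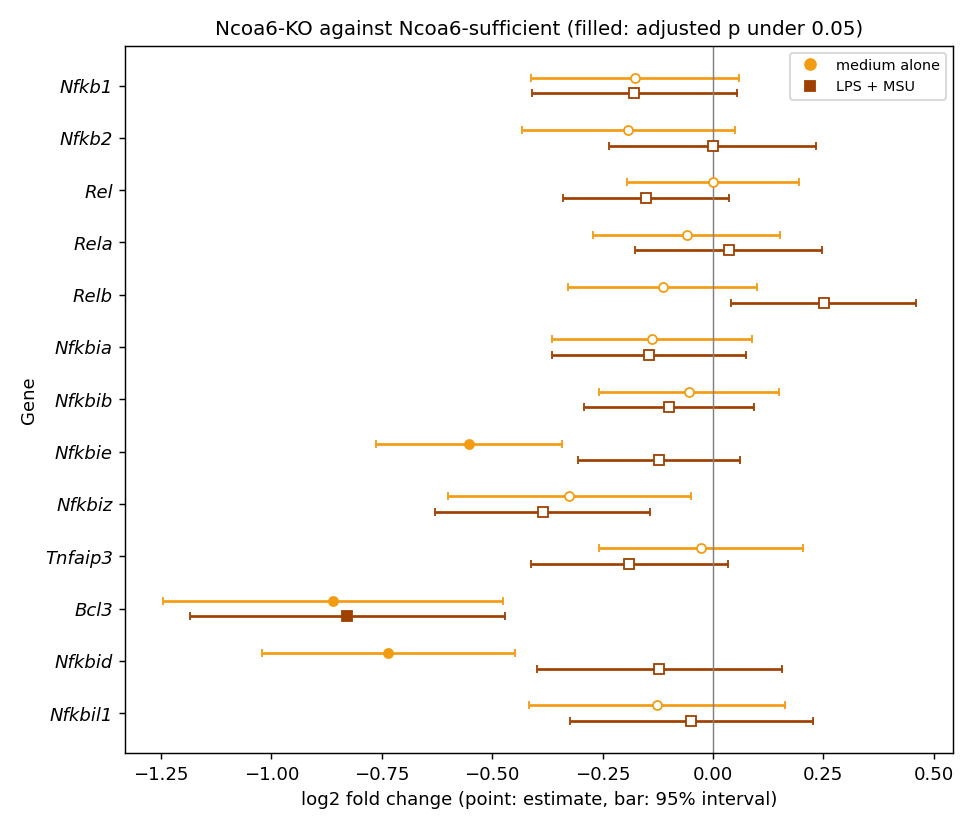
Log2 fold change of Ncoa6-KO against Ncoa6-sufficient BMDMs (x axis) for the 10 genes and 3 other IκB genes, with circles for medium alone, squares for LPS + MSU and bars for the 95% interval. Filled symbols have an adjusted p under 0.05, and they are *Nfkbie* and *Nfkbid* with medium alone and *Bcl3* in both conditions.

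The rest of the pathway was described through 5 lists of genes. The list of other IκB proteins held 3 genes. All of them rose with LPS + MSU in both genotypes, where 24.7% and 25.2% of all genes were called higher. *Bcl3* encodes a nuclear IκB protein that binds p50 and p52 dimers. It was at 378 and 343 normalized counts with medium and 1517 and 1106 with LPS + MSU in Ncoa6-sufficient BMDMs, and at 226 and 170, then 776 and 701, in the knockout. *Bcl3* was lower in the knockout with medium alone (log2 fold change -0.86, SE 0.174, adjusted p = 0.0363) and with LPS + MSU (-0.83, SE 0.162, adjusted p = 0.0214). *Nfkbid*, which encodes the nuclear protein IκBNS, was at 252 and 276 against 419 and 459 with medium alone (log2 fold change -0.74, SE 0.130, adjusted p = 0.0227) and at 680 and 812 against 743 and 879 with LPS + MSU (-0.12, adjusted p = 0.685). The difference between these knockout effects was 0.61 (95% interval 0.21 to 1.01, adjusted p = 0.576). *Nfkbil1* did not pass the test in either knockout comparison, at -0.13 and -0.05. Leaving out single libraries moved the adjusted p of *Bcl3* to at most 0.348 with medium and 0.187 with LPS + MSU, and that of *Nfkbid* with medium to at most 0.154.

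Of the 6 genes for the IKK kinases and NIK, 5 rose and 1 fell with LPS + MSU in each genotype. Of all genes, 24.7% and 25.2% were called higher and 30.5% and 27.9% lower in Ncoa6-sufficient and Ncoa6-KO BMDMs. The list's median log2 fold change was 0.77 and 0.85. *Ikbke*, which encodes the inducible kinase IKKε, rose the most (log2 fold change 2.80 and 3.12), and *Tbk1*, its relative, rose by 1.72 and 1.71. *Map3k14*, which encodes NIK, the kinase that starts p100 processing in the non-canonical pathway, fell from 543 and 512 to 144 and 147 normalized counts in Ncoa6-sufficient BMDMs (log2 fold change -1.85, SE 0.134, adjusted p = 4.22e-07). None of the 6 was called in either knockout comparison. Of the 19 adaptors and kinases upstream of IKK, 11 rose and 4 fell in Ncoa6-sufficient BMDMs and 10 rose and 5 fell in the knockout. In either direction 15 of the 19 were called in each genotype. Among all genes with a mean of 50 normalized counts or more, 70.3% and 68.1% were. *Traf1*, an adaptor of TNF receptors, rose by 5.54 on the log2 scale, *Irak2*, a kinase of the Toll-like receptor complex, by 3.54, and *Rnf31*, a ligase of linear ubiquitin chains, by 2.90 in Ncoa6-sufficient BMDMs. None of the 19 was called in either knockout comparison, with 4 at an unadjusted p under 0.05 in each, where 12.8% of all genes passed with medium alone and 17.4% with LPS + MSU.

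Of the 13 partners of A20 and other brakes, 8 rose and 1 fell with LPS + MSU in Ncoa6-sufficient BMDMs. In the knockout 8 rose and 2 fell. In either direction 9 and 10 of the 13 were called, a share near that of other expressed genes. Among all genes with a mean of 50 normalized counts or more, 70.3% and 68.1% were called. *Nlrc5* rose by 3.95 on the log2 scale, *Tnip3*, which encodes a partner of A20, by 3.13, and *Zc3h12a*, which encodes the RNA-cutting enzyme regnase-1, by 2.86 in Ncoa6-sufficient BMDMs. *Tnip3* was the only one of the 13 called for the knockout, beside 1.88% and 3.59% of all genes in the 2 conditions. It was at 816 and 903 against 1866 and 1611 normalized counts with medium alone (log2 fold change -1.02, SE 0.178, adjusted p = 0.0223). With LPS + MSU it was at 10388 and 8015 against 17919 and 12518 (-0.73, SE 0.172, adjusted p = 0.046). Leaving out single libraries moved its adjusted p to at most 0.262 and 0.349.

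The list of 26 NF-κB target genes encodes mostly cytokines, chemokines and enzymes. It rose in full with LPS + MSU in both genotypes, where 24.7% and 25.2% of all genes were called higher. Its median log2 fold change was 6.32 and 7.15, or 6.16 and 6.81 with 1 gene that had no counts in a group set to a floor of 3 counts per library. *Il6*, *Nos2* and *Il12b* moved the most, from 0 to 7.5 normalized counts at rest to between 9301 and 66910 with LPS + MSU over both genotypes. In the knockout, 7 of the 26 fell with medium alone and 6 fell with LPS + MSU, and none rose in either, where 1.3% and 1.63% of all genes were called lower, with medians of -0.46 and -0.27 beside -0.03 and 0.00 for all genes. The list was written with earlier results of these data known, so the contrast with all genes is a description and not an independent test. *Il1b*, the precursor of interleukin-1β, was at 18367 and 18637 against 31995 and 29707 normalized counts with LPS + MSU (log2 fold change -0.74, SE 0.111, adjusted p = 0.00744), and *Il1a*, its relative, at 6527 and 7966 against 13725 and 13660 (-0.92, SE 0.108, adjusted p = 0.00315). Both were also among the 7 called with medium alone, but on few counts. There *Il1b* was at 6.95 and 3.51 against 18.8 and 15.5 normalized counts, and *Il1a* at 8.34 and 7.90 against 24.0 and 20.6. These resting calls were lost in some of the refits. *Saa3*, an acute-phase protein gene, was at 145 and 113 against 603 and 436 with medium alone (-2.00, SE 0.195, adjusted p = 0.00169) and lower also with LPS + MSU (-0.76, adjusted p = 0.0334). *Cxcl10*, a chemokine gene, was at 93 and 89 against 250 and 330 with medium alone (-1.67, adjusted p = 0.00205) and had a log2 fold change of -0.15 with LPS + MSU (adjusted p = 0.657). *Ier3*, an early response gene, was lower in both conditions (-1.21, adjusted p = 0.0138, and -0.96, adjusted p = 0.0142). When single libraries were left out, the adjusted p reached at most 0.154 and 0.145 for *Ier3*, 0.25 for *Saa3* and 0.0853 for *Il1b* with LPS + MSU, and stayed under 0.05 for *Il1a* with LPS + MSU and for *Saa3* and *Cxcl10* with medium alone. The count of 7 became 3 without Ncoa6-sufficient replicate 1, without Ncoa6-sufficient replicate 2 and without knockout replicate 2 of the resting libraries, and the count of 6 became 1 without Ncoa6-sufficient replicate 1 and without knockout replicate 2 of the stimulated ones. Calls over all genes fell likewise, from 331 to 22, 81 and 103 and from 632 to 49 and 63. For the members themselves the medians of the knockout comparisons were -0.13 and -0.13.

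**Figure D5:**
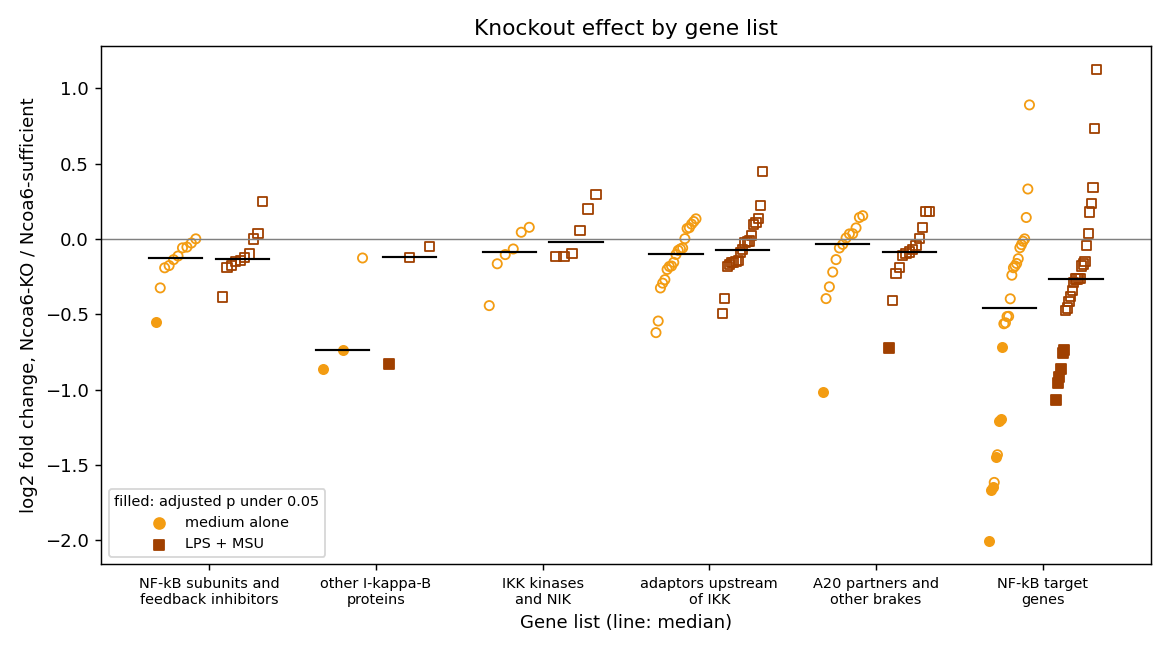
Log2 fold change of Ncoa6-KO against Ncoa6-sufficient BMDMs (y axis) for each gene of the members and the 5 lists, with circles for medium alone, squares for LPS + MSU, filled symbols for an adjusted p under 0.05 and black lines for medians. The members lie between -0.55 and 0.25, while the NF-κB target genes lie between -2.00 and 1.12, with filled symbols only below 0.

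The members shared their pattern over the 8 libraries with many other genes, since the contrast between medium and LPS + MSU dominated all of them. The genes with the highest Pearson correlation of log2 level over the 8 libraries were *Gch1* and *Rnf19b* for *Nfkb1*, *Nox1* and *Mapkapk2* for *Nfkb2*, *Ppp2r5a* and *Etnk1* for *Rel*, *Maml2* and *Arid1a* for *Rela*, and *Eci2* and *Maml2* for *Relb*. For the inhibitors they were *Nod1* and *Snx10* for *Nfkbia*, *Nod1* and *Ppm1k* for *Nfkbib*, *Acod1* and *Cxcl10* for *Nfkbie*, *Prpf38a* and *Rnf19b* for *Nfkbiz*, and *Irak2* and *Etnk1* for *Tnfaip3*. A correlation over 0.95 was reached by 580 of 888 candidates for *Nfkbiz* and by 1910 of 7347 for *Rela*, the fewest and the most genes. The pairs named therefore describe a shared response and are not particular to these genes.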

How the data were processed

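Mouse BMDM libraries (2 per genotype and culture condition) were compared. According to the submitters' processing notes and the study's methods, the authors made stranded poly(A) libraries, aligned read pairs to GRCm38 (STAR 2.7.3a) and used RSEM 1.3.3 to estimate gene counts. They deposited these expected counts without normalization. Ensembl identifiers were matched to symbols (50295 of 50615 rows). Positions and exon lengths came from GENCODE for GRCm38, and promoter windows from RefSeq (GRCm38.p6).

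Counts were rounded, and the 17625 genes with a sum of at least 10 over the 8 libraries were fitted with edgeR 4.0.16 (R 4.3.3), with TMM factors of 0.766 to 1.29 and the quasi-likelihood test on the 4 groups together, where the study used DESeq2. Benjamini-Hochberg adjustment was over all genes and calls were made at 0.05. Intervals are 95% intervals. Normalized counts refer to a library of 29332189 effective counts, the mean of the 8. The p-values measure the spread between these libraries, with 4 residual degrees of freedom a gene and a median of 6.77 more borrowed from the spread of all genes. Simulated data with 200 changed genes were used to test the code. Alternatives were DESeq2 1.42.0, its size factors in edgeR, filterByExpr, no filter, limma-voom 3.58.1, replicate blocks, fits without the libraries of the other groups, leaving out single libraries, a log2 fold change limit of 1 and the longest transcript as length. The last was added for the inhibitor to subunit ratio after its values were seen. In the leave-one-out fits the lone library of a group is assumed to vary like the others.

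The members and lists were chosen with earlier results of these data known. The text names every member and *Ncoa6*, the 3 genes of each list that changed most with LPS + MSU in Ncoa6-sufficient BMDMs among those called with a mean of 50 normalized counts or more, every gene of a list called in a knockout comparison (the 5 largest where there were more), and the 2 genes most like each member. *Map3k14* is named also for its knockout values.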

Additional observations from a re-analysis of the deposited data

Results flagged for a closer look

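*Map3k14*, the gene of the kinase NIK, drew attention because its 2 knockout libraries lay below both Ncoa6-sufficient ones with medium alone (496 and 443 against 543 and 512 normalized counts) and above both with LPS + MSU (153 and 182 against 144 and 147). The knockout effect differed between the conditions by 0.36 on the log2 scale (95% interval -0.05 to 0.78), which did not pass edgeR's interaction test (adjusted p = 0.879).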

How the results depend on the processing

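All 10 members kept their call as higher with LPS + MSU in both genotypes under each of the 16 refits, and their median log2 fold change stayed between 3.14 and 3.40. DESeq2's size factors moved the median of all genes by 0.11 on the log2 scale in Ncoa6-sufficient BMDMs and the members' median to 3.33, with no change of direction. With an added limit of 1 on the absolute log2 fold change 9 members were left in Ncoa6-sufficient cells. The count of 1 called member with medium alone became 0 with only the libraries compared, 0 with the limit of 1, and ran from 0 to 1 when single libraries were left out. The count of 0 with LPS + MSU became 1 with DESeq2 and 1 with no filter, in both cases *Nfkbiz*. Over all genes, knockout calls numbered 331 in resting and 632 in stimulated cells, 1152 and 1611 with no filter, and 247 and 347 with only the libraries compared. Of the counts of called genes in the 5 lists, 334 of 395 stayed within 1.5 times the value given. All counts of the stimulation comparisons stayed. Knockout counts moved beyond that limit 28 times and stayed 52 times with medium alone, and moved 27 times and stayed 53 times with LPS + MSU. Interaction counts moved 6 times and stayed 69 times. Over all genes, interaction calls numbered 0 with edgeR, 43 with DESeq2 and 269 with no filter.

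Library numbers 1 and 2 are shared between groups, but nothing in the sources links equally numbered libraries. Correlations of the deviations of equally numbered libraries ran from 0.033 to 0.334 over 11219 genes. The highest values joined resting and stimulated libraries of the same genotype, at 0.334 for the knockout and 0.257 for the Ncoa6-sufficient genotype. Across genotypes the values ran from 0.033 to 0.188. Whether equally numbered cultures of a genotype came from the same mouse was not tested. The numbers were therefore not taken to pair libraries in the main fit. With a replicate block across groups 1 member was called with LPS + MSU (*Nfkbiz*), and with a replicate block within each genotype 2 were called with medium alone (*Nfkbie*, *Nfkbiz*) and 2 with LPS + MSU (*Nfkbiz*, *Relb*). Over all genes these blocks gave 1023 and 1893 knockout calls in resting cells, 1532 and 2594 in stimulated cells and 86 and 444 for the interaction.

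The sign of a difference near 0 turned in some genes, none of them called in that comparison under any of the refits. With LPS + MSU, *Nfkb2* was at 0.00016 with limma-voom, 0.00033 and 4.1e-05 with the replicate blocks, 0.0022 with only the libraries compared and -0.051 to 0.028 without single libraries, and *Rela* was at -0.0011 with DESeq2 and -0.0011 with its size factors in edgeR and at -0.030 to 0.079 without single libraries. With medium alone, *Rel* was at -0.0027 with no filter, and leaving out single libraries gave -0.036 to 0.039 for *Rel*, -0.16 to 0.039 for *Rela* and -0.079 to 0.025 for *Tnfaip3*. For the difference of the knockout effects, *Nfkb1* was at 0.0018 with no filter, and leaving out single libraries gave -0.10 to 0.090 for *Nfkb1*, -0.0078 to 0.20 for *Rela*, -0.12 to 0.034 for *Nfkbia*, -0.18 to 0.057 for *Nfkbiz* and -0.28 to 0.049 for *Ncoa6*. The cause of these changes was not tested. With 2 libraries a group, differences between genotypes smaller than the 95% intervals given could not be told from none.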
